A study of Mus musculus with 46 samples.

Results

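The 7 genes described here, Cd74, H2-Aa, H2-Ab1, H2-Eb1, H2-DMa, H2-DMb1 and Ciita, carry out antigen presentation on MHC class II. They were taken by symbol, as listed genes and not by their measured values, from tables of 45777 gene symbols, and all 7 were found in each of the 5 bulk tables and in the 3 single-cell matrices. Class II molecules display peptides of endocytosed proteins to CD4 T cells. The α and β chains assemble with the invariant chain, whose removal in the endosome and exchange for peptide depend on cathepsins and on the H2-DM complex, and the genes are switched on together by the transactivator CIITA, which interferon-γ induces in many cells. Dendritic cells, macrophages and B cells carry class II constitutively, and in the small intestine absorptive epithelial cells are also known to carry it.

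All mice were male C57BL/6J, and none carried a transgene or a deletion. Imeglimin and metformin, both glucose-lowering drugs, were each set against untreated control mice. In the chronic arm imeglimin or metformin was given in the drinking water at 3 mg/mL for 4 weeks, and RNA of the colon and of the small intestine, cut into proximal, middle and distal parts, was sequenced. In the acute arm a single oral dose of imeglimin or metformin, 600 mg/kg, was given and the colon was taken at 6 h. Each of the 15 bulk groups had 3 libraries. The labels do not say whether these came from separate mice, so the p-values measure the spread between libraries, and whether the 4 segments of the chronic arm share mice is not stated either. The single-cell arm consisted of 3 matrices of dissociated colon cells after 12 weeks of drug in the water, named Ime, Met and CT, 1 matrix per treatment, and the link of each matrix to its treatment rests on that name.

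C57BL/6 mice carry the H2b haplotype, in which the gene for the Eα chain is not transcribed, so that H2-Aa and H2-Ab1 form the only complete surface heterodimer, I-A. H2-Ea-ps, the Eα pseudogene, was listed at 0 in all 45 libraries, and H2-Eb1, its partner chain, was read at 25.9 to 605 CPM in every library. Levels are given as CPM, the count relative to the library total, scaled by the trimmed mean of M-values over all 45 libraries. CPM is not corrected for transcript length, so levels are compared between groups and not between genes. Library totals ranged from 31606797 to 47324301 counts. Slc26a3, the chloride exchanger of colonic surface cells, was 2.95 ± 0.17 (SE) higher on the log2 scale in untreated chronic colon than in distal small intestine (edgeR adjusted p = 1.89e-14), as the tissue labels have it. The lowest raw count of a class II gene in any library was 92, for Ciita, and that of Cd74 was 3613.

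The class II genes share a promoter module that recruits CIITA through DNA-bound factors, the S, X and Y boxes, of which the Y box binds NF-Y and the X box binds the RFX complex. RefSeq promoters (GRCm38.p6, 250 bases before to 50 after the start) were given for 4 of the 7 genes, H2-Aa, H2-Eb1, H2-DMb1 and, with 2 entries, H2-DMa. The windows were searched on both strands for CNNGNAAC, taken as the X box core, followed after a gap of 10 to 35 bases by TGATTGG, the Y box core. These letters were chosen after the sequences had been seen. The module was found in H2-Aa, H2-Eb1 and H2-DMb1 and in neither entry of H2-DMa. The 3 windows are shown because they hold the module, with the X and Y cores, found on the gene strand, in capitals.
H2-Aa, chr17:34287774-34288073, minus strand: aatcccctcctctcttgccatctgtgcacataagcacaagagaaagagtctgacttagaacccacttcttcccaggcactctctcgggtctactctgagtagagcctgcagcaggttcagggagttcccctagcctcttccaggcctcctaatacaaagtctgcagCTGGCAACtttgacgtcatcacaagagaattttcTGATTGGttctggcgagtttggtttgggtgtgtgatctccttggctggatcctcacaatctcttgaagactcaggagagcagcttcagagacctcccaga
H2-Eb1, chr17:34305617-34305916, plus strand: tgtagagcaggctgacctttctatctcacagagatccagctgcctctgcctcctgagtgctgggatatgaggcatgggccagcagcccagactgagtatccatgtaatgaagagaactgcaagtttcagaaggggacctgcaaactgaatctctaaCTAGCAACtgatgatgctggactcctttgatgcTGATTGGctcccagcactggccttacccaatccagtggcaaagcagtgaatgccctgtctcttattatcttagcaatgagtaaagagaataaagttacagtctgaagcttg
H2-DMb1, chr17:34152941-34153240, plus strand: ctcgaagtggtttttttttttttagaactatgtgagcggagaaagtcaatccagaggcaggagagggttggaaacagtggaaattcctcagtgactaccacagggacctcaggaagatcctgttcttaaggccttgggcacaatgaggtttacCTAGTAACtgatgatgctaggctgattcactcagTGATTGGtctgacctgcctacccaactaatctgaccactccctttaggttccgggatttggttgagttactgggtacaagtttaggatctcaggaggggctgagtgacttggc

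The gap between the cores was 26 bases in H2-Aa, 25 bases in H2-Eb1 and 26 bases in H2-DMb1, and the Y core began 50, 61 and 63 bases before the start. Among 32851 mouse promoters of the same length, searched on both strands, 7.82% held the Y core and 39.1% held the X core. Both in this order and spacing were held by 68, or 0.207%. Of the 4 further class II promoters given, those of H2-Eb2, H2-Oa and H2-Ob held the module and that of H2-DMb2 did not. A match of letters is a description of the window, not a measured site.

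The class II genes were read at far higher levels in the small intestine than in the colon. In untreated chronic mice Cd74, the invariant chain, had 170, 164 and 195 CPM in the colon, against 1292, 1657 and 1360 CPM in the distal small intestine. The segments did not overlap, and the log2 fold change, colon over distal, was −3.06 ± 0.29 (SE; edgeR adjusted p = 1.18e-09). H2-Aa, the α chain of I-A, had 82.2, 76.3 and 87.0 CPM in the colon, against 580, 834 and 631 CPM in the distal segment. H2-DMb1, the β chain of the peptide-exchange complex, had 8.34, 8.71 and 10.5 CPM in the colon, against 103, 118 and 94.6 CPM in the distal segment, the steepest difference of the 7 at −3.55 ± 0.30 (SE; edgeR adjusted p = 1.25e-10). Ciita had 19.97, 14.1 and 19.99 CPM in the colon, against 60.0, 83.3 and 88.5 CPM in the distal segment, the shallowest at −2.13 ± 0.38 (SE; edgeR adjusted p = 3.78e-05). All 7 genes were lower in the colon by edgeR's quasi-likelihood test at an adjusted p under 0.05, where 23.6% of 20053 genes tested were called lower.

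Of 18 class I genes, 17 were lower in the colon than in the distal small intestine, among them B2m, the class I light chain, at −2.11 ± 0.18 (SE), and Calr, a chaperone of class I assembly, at −1.26 ± 0.10 (SE), with a list median of −1.23 against 0.00 for all genes. Of 21 interferon-γ response genes, 11 were lower and Ifngr1, a receptor subunit, was higher. Ido1, an interferon-induced tryptophan-degrading enzyme, was at −4.54 ± 0.72 and the receptor kinase Jak2 at −0.94 ± 0.15 (SE). Of all 20053 genes tested, 23.6% were called lower and 9022 were called in either direction. The counts among 18 further class II pathway genes tested lay near that share. Of these, 3 were higher, including the invariant chain protease Ctsl at 1.59 ± 0.12 (SE). Another 5 were lower, including the endosomal protease Lgmn at −1.11 ± 0.11 (SE). Markers of immune cells also differed. All 15 T cell markers, 9 of 18 myeloid markers and 8 of 9 plasma cell markers were lower in the colon, Cd8a by 4.27 ± 0.30 (SE). None of 16 B cell markers passed the test. The part of these cell contents in the class II difference was not tested. In bulk tissue, fewer cells of a type and less RNA per cell cannot be told apart.

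**Figure D1:**
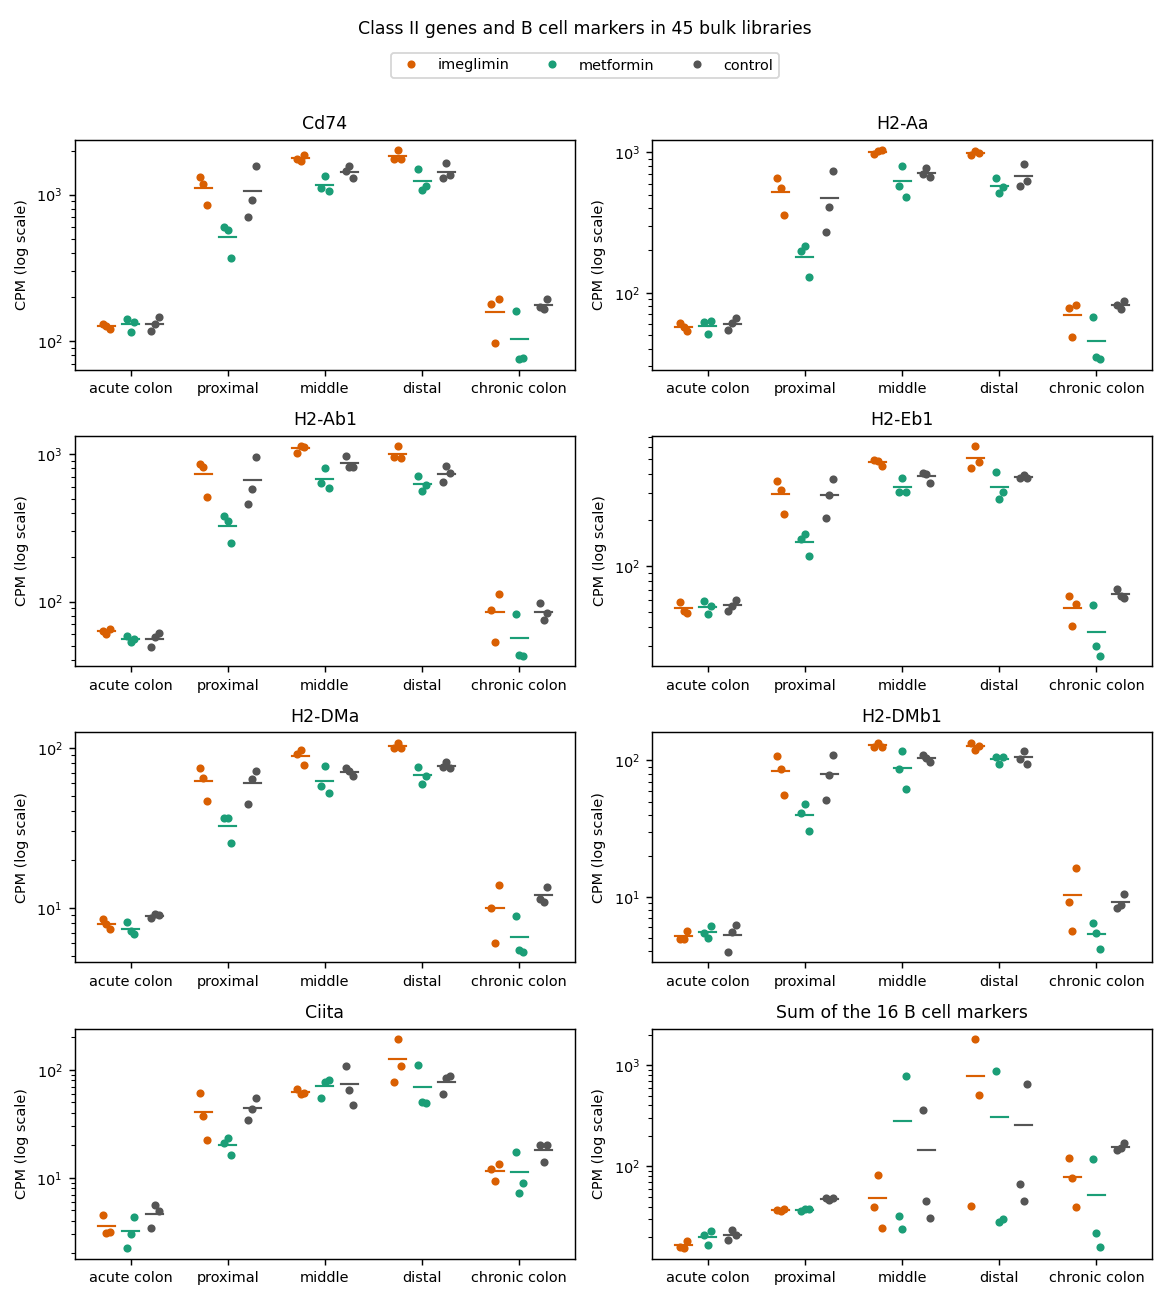
CPM (log scale) of each class II gene and of the summed 16 B cell markers in the 45 bulk libraries, 1 point per library with the group mean as a bar, for imeglimin, metformin and control in each tissue. Proximal metformin libraries lie below all other small intestine groups for Cd74, at 367 to 605 CPM, and colon libraries lie below 200 CPM for that gene.

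Across the 15 groups Cd74 ran from 1842 ± 155 CPM in distal imeglimin and 1777 ± 86.0 CPM in middle imeglimin (SD, n = 3 each), whose ranges overlapped, down to 104 ± 48.1 CPM in chronic colon metformin. Middle imeglimin did not overlap with the next group, middle control, at 1439 ± 129 CPM (SD, n = 3). From middle control through distal control, distal metformin, middle metformin, proximal imeglimin and proximal control, each group overlapped with its neighbour. Proximal metformin, at 514 ± 129 CPM (SD, n = 3), overlapped neither with proximal control above it nor with chronic colon control below it, and the 6 colon groups overlapped each with the next. For 6 of the 7 genes the lowest of 27 small intestine libraries exceeded the highest of 18 colon libraries, by 1.48-fold for H2-Aa to 2.21-fold for H2-Ab1. Ciita was the exception: its lowest small intestine library, in proximal metformin, was at 0.818 of its highest colon library.

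Between neighbouring untreated segments of the small intestine, only H2-DMa did not overlap. It was at 75.5, 81.8 and 75.1 CPM in distal controls, against 74.9, 71.5 and 66.3 CPM in middle controls. None of the 7 genes was called between middle and proximal, where 6.71% of 20053 genes were, or between distal and middle, where 9.97% were. At an unadjusted p under 0.05 there were also none in either comparison, and DESeq2 called none. The middle over proximal fold changes ran from 0.23 to 0.73 on the log2 scale, all positive, and the proximal controls spread widely, with Cd74 at 707, 926 and 1559 CPM.

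Class II genes passed the test for a drug in the proximal small intestine. There metformin libraries had 605, 571 and 367 CPM of Cd74, against 707, 926 and 1559 CPM in control libraries. H2-Aa was at 198, 214 and 129 CPM with metformin, against 271, 407 and 733 CPM in controls. Every metformin library lay below every control library for all 7 genes, although the nearest values of Cd74, 605 and 707 CPM, were close. A separation of this kind, lower and without overlap, was shared by 12.5% of 17273 genes.

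By edgeR's quasi-likelihood test, 4 of the 7 genes were lower in proximal metformin than in proximal control, where 2.46% of 17295 genes were called lower. H2-Aa fell by 1.40 ± 0.33 (SE) on the log2 scale, to 0.378 of the control level (edgeR adjusted p = 0.0395). Its partner H2-Ab1, the I-A β chain, fell by 1.05 ± 0.26 (SE; edgeR adjusted p = 0.0498). H2-Eb1, the Eβ chain, had 150, 162 and 116 CPM with metformin, against 206, 290 and 371 CPM in controls, and fell by 1.04 ± 0.22 (SE; edgeR adjusted p = 0.0282). H2-DMa, the α chain of the peptide-exchange complex, had 36.3, 36.3 and 25.4 CPM with metformin, against 44.9, 63.6 and 71.4 CPM in controls, and fell by 0.89 ± 0.20 (SE; edgeR adjusted p = 0.0360). The other 3 genes had log2 fold changes of −1.07 ± 0.27 for Cd74, −1.01 ± 0.28 for H2-DMb1 and −1.14 ± 0.29 for Ciita (SE), with edgeR adjusted p values of 0.0521, 0.0659 and 0.0519. Ciita was at 21.1, 23.3 and 16.3 CPM with metformin, against 34.6, 43.5 and 54.6 CPM in controls. Over the 7 genes the median log2 fold change was −1.05, against −0.01 for all genes tested.

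These calls sat close to the threshold. The libraries carry batch tags that match their replicate numbers. With the number as a block, edgeR called 0 of the 7, and 470 of all genes in either direction, against 710 without the block. Leaving out 1 of the 6 metformin and control libraries at a time gave 6 calls without control 1, 1 call without metformin 2 and 0 calls without metformin 1, metformin 3, control 2 or control 3. Over all genes these fits called 52 to 493. Because the groups did not overlap, all 7 genes were lower with metformin in each batch, as any pairing of the libraries would give. The log2 differences were −0.71 to −0.22 in batch 1, −0.93 to −0.70 in batch 2 and −2.51 to −1.49 in batch 3. Batch 3 held both the lowest metformin library and the highest control library. With the B cell score as a covariate 0 of the 7 were called and all 7 log2 fold changes were positive with wide errors, from 0.21 ± 0.48 for H2-Eb1 to 0.92 ± 0.46 for Cd74 (SE). Over all genes 0 were called with this covariate, against 710 without it. The summed B cell markers did not overlap between the 2 groups, so B cell content and treatment cannot be told apart in this fit.

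Several cell marker lists were also lower in proximal metformin. The 16 B cell markers summed to 36.1 to 38.1 CPM with metformin and to 46.4 to 48.4 CPM in controls, and 1 of 14 tested was lower, Cd79a, a B cell receptor subunit, by 0.66 ± 0.14 (SE; edgeR adjusted p = 0.0282). Ms4a1, the CD20 gene, was at 0.228, 0.396 and 0 CPM with metformin and 0.156, 0 and 0.513 CPM in controls. Up to 4 B cell markers were at 0 in a metformin library and up to 1 in a control library. The summed T cell markers were at 241 to 330 CPM with metformin and 371 to 438 CPM in controls, with 5 of 15 lower, including Cd8a by 0.54 ± 0.10 and Lck by 0.44 ± 0.10 (SE). The summed myeloid markers were at 157 to 163 CPM with metformin and 226 to 255 CPM in controls, with 4 of 18 lower, including the macrophage lysozyme Lyz2 by 0.76 ± 0.11 (SE). Plasma cell markers were lower in 4 of 9, fibroblast markers in 4 of 7 and smooth muscle markers in 5 of 6, Myh11 by 0.83 ± 0.14 (SE). None of 20 epithelial markers was called by edgeR; their sum was 22466 to 23953 CPM with metformin and 21984 to 24072 CPM in controls. Proximal imeglimin was also lower than controls in summed B cell (36.5 to 38.3 CPM), myeloid (143 to 194), plasma cell (5464 to 7068) and fibroblast markers (207 to 238). Controls were at 46.4 to 48.4, 226 to 255, 7873 to 9048 and 259 to 387 CPM in that order. Its T cell and smooth muscle sums overlapped those of controls, and its class II log2 fold changes over control were −0.13 to 0.16. The part of these contents in the class II difference was not tested.

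In the same segment imeglimin libraries had more class II RNA than metformin libraries. Cd74 was at 1313, 1188 and 846 CPM with imeglimin, against 605, 571 and 367 CPM with metformin. For 6 of the 7 genes every imeglimin library lay above every metformin library, Ciita being the exception, and 11.1% of 17273 genes were higher without overlap. H2-Eb1 was the only gene of the 7 called, at 358, 314 and 219 CPM with imeglimin and 150, 162 and 116 CPM with metformin, which is 1.08 ± 0.22 higher on the log2 scale (SE; edgeR adjusted p = 0.0410), where 0.659% of 17295 genes were called higher. All 7 had an unadjusted p under 0.05, with log2 fold changes of 0.94 to 1.56. With the replicate block 0 of the 7 were called, and the count without 1 library was 0 for each of 5 libraries and 1 without imeglimin 3. Over all genes, in either direction, 94 were called with the block and 0 to 140 without 1 library, against 189 in the main fit. Within each of the 3 batches all 7 genes were higher with imeglimin than with metformin. For the 6 genes without overlap any pairing of the libraries would give this. The B cell markers summed to 36.5 to 38.3 CPM with imeglimin, against 36.1 to 38.1 CPM with metformin, and all 6 smooth muscle markers were higher with imeglimin than with metformin. The summed T cell markers did not overlap, at 342 to 423 CPM with imeglimin and 241 to 330 CPM with metformin, and 0 of 15 were called by edgeR. The part of these contents in the difference was not tested.

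Against proximal controls, imeglimin gave 0 calls among the 7 genes, where 1.16% of 17295 genes were called, with no unadjusted p under 0.05 and no call by DESeq2. Log2 fold changes were −0.13 to 0.16, and the 95% interval for H2-Aa ran from −0.55 to 0.87. The libraries disagreed by batch, with all 7 genes higher with imeglimin in batch 1 and all 7 lower in batch 3. The 3 proximal comparisons share their libraries.

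**Figure D2:**
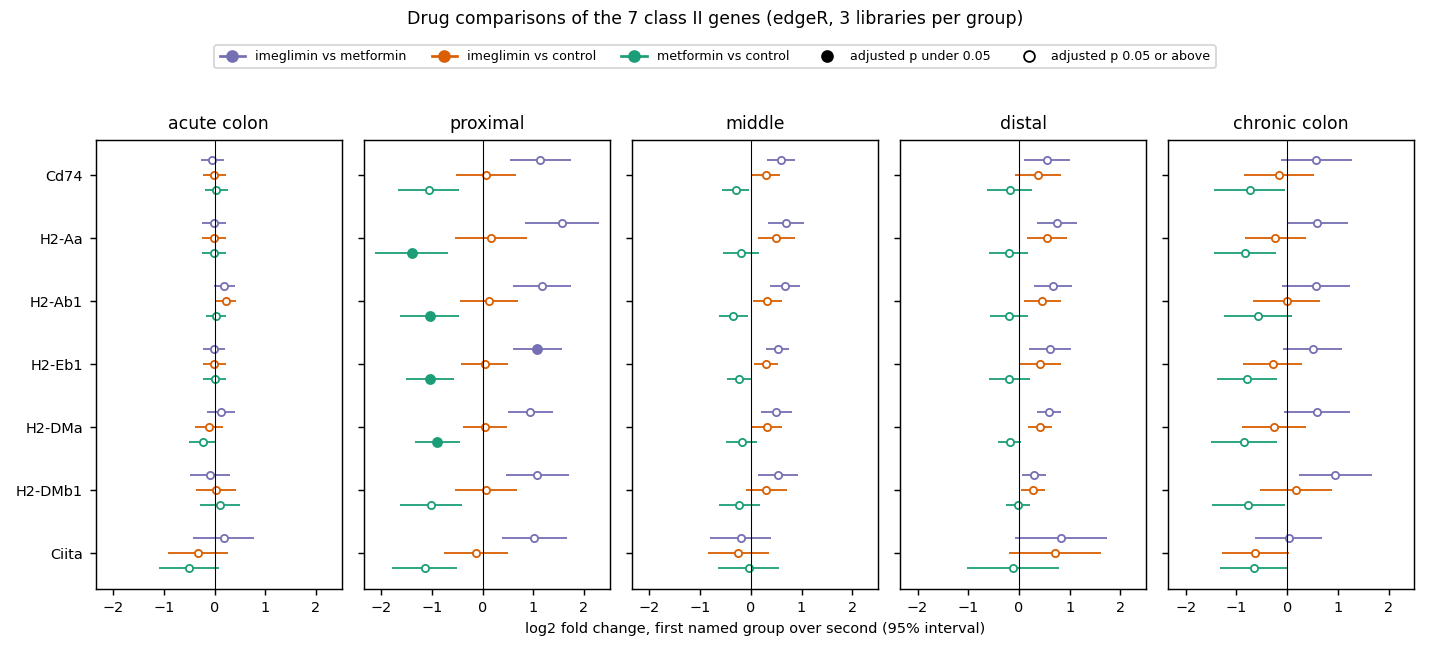
Log2 fold changes of the 7 class II genes (x axis, 95% interval) in the 5 tissues for imeglimin over metformin, imeglimin over control and metformin over control; filled points have an edgeR adjusted p under 0.05. Filled points appear in the proximal panel only, 4 for metformin over control and 1 for imeglimin over metformin.

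In proximal metformin 3 of 20 interferon-γ response genes tested were lower than in controls, Gbp2 by 1.27 ± 0.29, Gbp5 by 1.22 ± 0.24 and Ido1 by 1.19 ± 0.22 (SE), with a list median of −0.99. Of 18 class I genes 1 was lower, Tap2, a subunit of the peptide transporter, by 0.52 ± 0.12 (SE), with a list median of −0.45. Of 20 further class II pathway genes tested, 3 were higher with metformin, Ifi30, the lysosomal thiol reductase, at 0.51 ± 0.08, Ctsl at 0.68 ± 0.11 and Ctsb at 0.28 ± 0.06 (SE), and none was lower. H2-DMb2, a near-identical neighbour of H2-DMb1 with which reads may be shared, was at −0.70 on the log2 scale (edgeR adjusted p = 0.0925).

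In the middle small intestine no class II gene was called, and imeglimin libraries had the highest levels. Cd74 was at 1750, 1707 and 1873 CPM with imeglimin, against 1452, 1561 and 1303 CPM in controls. The 6 genes other than Ciita were higher with imeglimin without overlap, as were 13.5% of 17918 genes, by log2 fold changes of 0.30 to 0.50. The edgeR test called 0 of the 7 and 0.0279% of 17940 genes; 5 of the 7 had an unadjusted p under 0.05 and DESeq2 called 1. Ciita was at 66.2, 59.7 and 61.6 CPM with imeglimin and 110, 64.7 and 47.6 CPM in controls, and overlapped.

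Set against metformin in the middle segment, the same 6 genes were higher with imeglimin without overlap, as were 11.8% of 17918 genes, by log2 fold changes of 0.50 to 0.69. H2-Aa was at 971, 1023 and 1041 CPM with imeglimin, against 577, 804 and 483 CPM with metformin. The edgeR test called 0 of the 7, and 0% of 17940 genes; 6 of the 7 had an unadjusted p under 0.05 and DESeq2 called 5. Metformin against control gave 0 calls, where 0.34% of genes were called, with 2 of the 7 below 0.05 before adjustment and none called by DESeq2. The summed T cell markers were at 323 to 410 CPM with imeglimin and 182 to 296 CPM with metformin, and the summed class I genes at 8517 to 9066 CPM with imeglimin, 5970 to 7699 CPM with metformin and 6840 to 7257 CPM in controls. No T cell or class I gene was called by edgeR between imeglimin and metformin, and the part of T cell content was not tested. The metformin over control log2 fold change of Cd74 was −0.30 with a 95% interval of −0.56 to −0.03.

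In the distal small intestine imeglimin libraries were again above the others for 6 genes. Cd74 was at 1741, 2020 and 1764 CPM with imeglimin, against 1292, 1657 and 1360 CPM in controls, and H2-DMa was at 100.1, 108 and 99.1 CPM with imeglimin, against 75.5, 81.8 and 75.1 CPM in controls. The 6 genes other than Ciita were higher with imeglimin without overlap, as were 7.24% of 18211 genes, by log2 fold changes of 0.28 to 0.55. The edgeR test called 0 of the 7 and 0.0219% of 18233 genes; 5 of the 7 had an unadjusted p under 0.05, and DESeq2 called 1. All 7 genes were higher with imeglimin in each of the 3 batches. Any pairing of the libraries would give this for the 6 genes without overlap, so only Ciita could differ.

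Against distal metformin, these 6 genes were higher with imeglimin without overlap, as were 7.43% of 18211 genes, with log2 fold changes of 0.30 to 0.75. H2-Aa was at 957, 1019 and 988 CPM with imeglimin, against 657, 518 and 569 CPM with metformin. The edgeR test called 0 of the 7 and 0.0494% of 18233 genes; 6 of the 7 had an unadjusted p under 0.05, and DESeq2 called 3. The summed T cell markers were at 298 to 382 CPM with imeglimin and 152 to 213 CPM with metformin, and the summed class I genes at 6943 to 8047 CPM with imeglimin and 5672 to 6281 CPM with metformin, both without overlap and with no gene of either list called by edgeR. The part of T cell content was not tested here either. Metformin against control called 0 of the 7 and 0.625% of genes, with none of the 7 below 0.05 before adjustment and none called by DESeq2. Ctsl was higher with metformin in the middle segment, at 0.78, and in the distal segment, at 1.12, and higher with imeglimin in the distal segment, at 0.90 on the log2 scale.

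Ciita in the distal segment was at 78.0, 192 and 108 CPM with imeglimin, 110, 50.6 and 49.5 CPM with metformin and 60.0, 83.3 and 88.5 CPM in controls. The library at 192 CPM was also the one with the most B cell markers, 1800 CPM in sum, among them Ms4a1 at 131 CPM.

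B cell content was uneven in the middle and distal segments, where some libraries carried the markers at many times the level of others. In the middle segment the 16 B cell markers summed to 39.4, 81.7 and 24.7 CPM with imeglimin, 32.3, 24.3 and 776 CPM with metformin and 361, 45.3 and 31.2 CPM in controls. In the distal segment they summed to 40.7, 1800 and 509 CPM with imeglimin, 871, 28.6 and 30.6 CPM with metformin and 66.5, 46.0 and 653 CPM in controls. High and low libraries occurred in every distal group.

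The class II genes followed this content to different degrees. H2-DMb2 followed the B cell marker score, the mean log2 CPM of the 16 markers, over the 9 libraries of the middle segment (Pearson r = 0.98) and the distal segment (r = 0.99). Ciita had r = 0.68 in the middle and 0.86 in the distal segment, and Cd74 had r = −0.31 in the middle and 0.55 in the distal segment. In the middle metformin library with 776 CPM of B cell markers Cd74 was at 1058 CPM, the lowest of the 9 middle libraries. In the proximal segment Cd74 had r = 0.75, with the genes described here between 0.72 for H2-Aa and 0.80 for Ciita. In the chronic colon Cd74 had r = 0.76, with the same genes between 0.45 for H2-DMb1 and 0.89 for H2-Eb1. In the acute colon Cd74 had r = 0.58, with these genes between −0.11 for H2-Ab1 and 0.66 for H2-Aa. These are descriptions over 9 libraries of 3 treatments each.

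**Figure D3:**
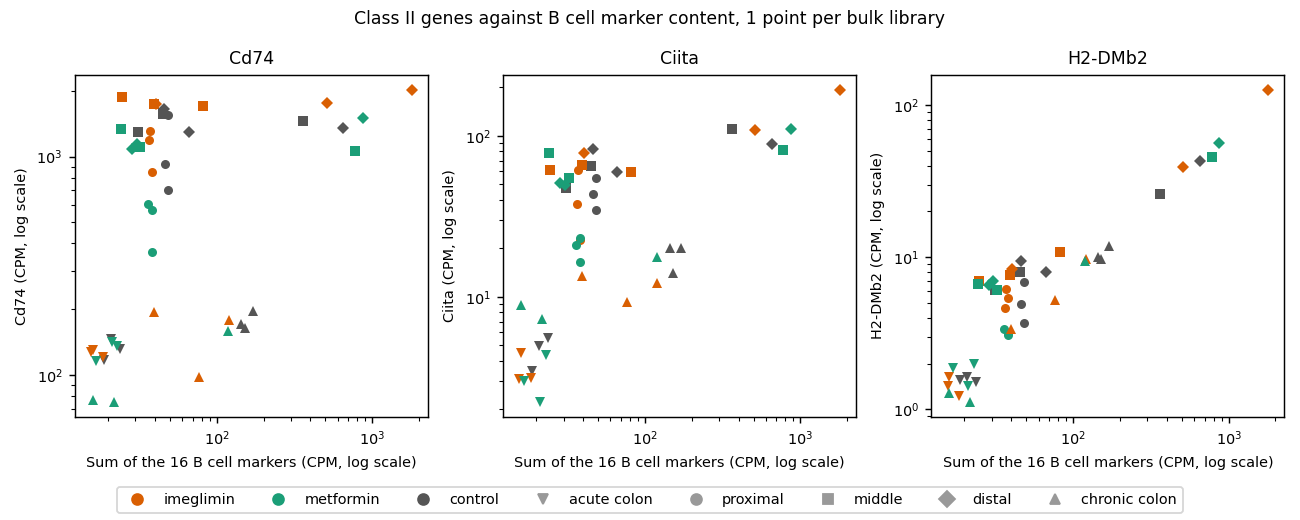
CPM of Cd74, Ciita and H2-DMb2 (y axis, log scale) against the summed CPM of the 16 B cell markers (x axis, log scale), 1 point per bulk library, coloured by treatment and shaped by tissue. H2-DMb2 follows the marker sum across the middle and distal libraries, whereas Cd74 in the middle segment stays between 1058 and 1873 CPM while the marker sum runs from 24.3 to 776 CPM.

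In the colon after 4 weeks, metformin libraries 2 and 3 were low in all class II genes. Library 1 lay nearer the controls for all but H2-DMb1. That gene was at 6.40, 5.42 and 4.14 CPM with metformin, against 8.34, 8.71 and 10.5 CPM in controls. Cd74 was at 159, 75.3 and 76.7 CPM with metformin, against 170, 164 and 195 CPM in controls. H2-Eb1 was at 55.3, 30.1 and 25.9 CPM with metformin, against 70.4, 63.6 and 61.9 CPM in controls. All but H2-Ab1 and Ciita were lower with metformin without overlap, as were 22.2% of 18644 genes. Log2 fold changes ran from −0.85 for H2-DMa to −0.58 for H2-Ab1.

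None of the 7 was called by edgeR, where 19.7% of 18665 genes were called, with edgeR adjusted p values of 0.0568 to 0.200, 5 at an unadjusted p under 0.05 and 1 called by DESeq2. With the replicate block 4 of the 7 were called lower, H2-Aa, H2-Eb1, H2-DMa and Ciita. Over all genes, in either direction, 3546 were called with the block and 4565 by DESeq2. Without metformin 1, 6 were called, and without any other single library 0 were called. Over all genes the fits without 1 library called 2066 to 3429, against 3669 in the main fit. Within batches all 7 genes were lower with metformin, by −0.38 to −0.09 in batch 1, −1.14 to −0.68 in batch 2 and −1.37 to −0.95 in batch 3. Any pairing of the libraries would give this direction for the genes without overlap.

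B cell markers in the chronic colon summed to 119, 21.8 and 16.03 CPM with metformin and to 144, 152 and 170 CPM in controls. Metformin 1, the metformin library with Cd74 nearest the controls, was also the metformin library with B cell markers nearest the controls. With imeglimin the markers summed to 120, 77.0 and 39.6 CPM, and Cd74 was at 179, 97.3 and 195 CPM in the same order. The imeglimin library with the fewest B cell markers thus had the most Cd74 of that group. Of 16 B cell markers tested, Ebf1 was lower, by 1.13 ± 0.34 (SE; edgeR adjusted p = 0.0428), with a list median of −1.78 against −0.05 for all genes. Fibroblast markers were lower in 6 of 7, smooth muscle markers in 5 of 6 and myeloid markers in 2 of 18. Of 21 epithelial markers 7 were higher and 2 lower, including the goblet cell gene Tff3 at 1.09 ± 0.13 (SE), and their sum was 23617 to 28539 CPM with metformin and 21214 to 23412 CPM in controls. With the B cell score as a covariate 0 of the 7 were called, as without it. For Cd74, Ciita and H2-DMb1 the log2 fold changes were −0.25 ± 0.36, −0.14 ± 0.32 and −0.76 ± 0.47 (SE), against −0.74, −0.66 and −0.77 without it. Over all genes 601 were called with the covariate, against 3669 without it. The summed B cell markers did not overlap between these 2 groups, and the part of B cell content in the difference was not tested. Ccr7, counted here in the myeloid list, was at −1.63 ± 0.45 (SE). Of 18 class I genes 3 were higher and none lower, a share near the 19.7% of all genes called in either direction, H2-D1 at 0.67 ± 0.10, B2m at 0.70 ± 0.19 and Calr at 0.35 ± 0.09 (SE). Of 18 other class II pathway genes 6 were higher, including Ifi30 at 0.82 ± 0.10 and Nfyc, an NF-Y subunit, at 0.58 ± 0.08 (SE), and none was lower.

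Imeglimin in the chronic colon gave 0 calls against control, where 13% of 18665 genes were called, with no unadjusted p under 0.05 and no DESeq2 call. Cd74 was at 179, 97.3 and 195 CPM with imeglimin, and 1 library lay below all controls while 2 lay among them. Ciita was at 12.2, 9.32 and 13.5 CPM with imeglimin and 19.97, 14.1 and 19.99 CPM in controls, at −0.62 ± 0.30 on the log2 scale (SE; edgeR adjusted p = 0.199). Imeglimin against metformin gave 0 calls, where 0.611% of genes were called, with 1 of the 7 below 0.05 before adjustment, H2-DMb1 at 0.95 ± 0.32 (SE; edgeR adjusted p = 0.162), which was also the 1 gene called by DESeq2.

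At 6 h after a single dose no class II gene of the colon was called. Cd74 was at 130, 127 and 121 CPM with imeglimin, 142, 116 and 135 CPM with metformin and 117, 131 and 146 CPM in controls. Metformin against control gave 0 calls of 7, where 19.7% of 18294 genes were called, with none below 0.05 before adjustment and none by DESeq2. The 95% interval of the Cd74 log2 fold change ran from −0.19 to 0.26. Imeglimin against control gave 0 calls, where 33.3% of genes were called, with 1 below 0.05 before adjustment, H2-Ab1 at 0.22 ± 0.09 (SE; edgeR adjusted p = 0.0870), and none by DESeq2. Imeglimin against metformin gave 0 calls, where 0.645% of genes were called, with no unadjusted p under 0.05 and no DESeq2 call.

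Ciita in the acute colon was at 4.50, 3.10 and 3.13 CPM with imeglimin, 2.23, 3.01 and 4.36 CPM with metformin and 3.44, 5.57 and 4.97 CPM in controls, and the groups overlapped. Of 18294 genes tested at this time, 33.3% were called with imeglimin and 19.7% with metformin against controls, in either direction. Interferon-γ response genes were among them. With imeglimin 10 of 20 were lower and 3 higher, and with metformin 5 were lower and 3 higher; Irf1, an interferon-induced transcription factor, fell by 1.57 with imeglimin and by 1.18 with metformin on the log2 scale. Nfya, a subunit of the Y box factor, was 0.97 higher with imeglimin. B cell markers summed to 15.6 to 18.5 CPM with imeglimin, 16.8 to 22.9 CPM with metformin and 18.8 to 23.8 CPM in controls, with up to 4 of the 16 at 0.

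The acute and chronic colon controls, from separate tables, are given side by side only. Cd74 averaged 177 ± 16.4 CPM in chronic controls and 131 ± 14.4 CPM in acute controls, and Ciita 18.02 ± 3.38 CPM in chronic controls and 4.66 ± 1.10 CPM in acute controls (SD, n = 3 each). The B cell markers summed to 144 to 170 CPM in chronic controls and 18.8 to 23.8 CPM in acute controls.

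Tests of whether a drug's effect differed between settings called none of the 7 genes. For metformin, chronic against acute colon, 6.22% of 19369 genes were called; 4 of the 7 had an unadjusted p under 0.05, DESeq2 called 0, and H2-DMb1 had the largest difference, −0.85 ± 0.39 (SE; edgeR adjusted p = 0.228). For metformin between the 4 chronic segments, 4.03% of 20053 genes were called; 3 of the 7 had an unadjusted p under 0.05, and the lowest edgeR adjusted p was 0.168, for H2-Aa, the 1 gene that DESeq2 called (adjusted p = 0.0481). For imeglimin, 16.3% of genes were called for chronic against acute colon and 2.96% between segments, with none of the 7 below 0.05 before adjustment and none by DESeq2 in either.

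Over the 45 libraries the 7 genes moved together. On the log2 CPM scale the pairwise Pearson r among the 6 genes other than Ciita was between 0.98 and 1.00, and Ciita had r = 0.91 to 0.93 with each of them. Within the 27 small intestine libraries these ranges were 0.93 to 0.99 among the 6 genes and 0.78 to 0.89 for Ciita, and within the 18 colon libraries 0.50 to 0.99 and 0.15 to 0.67. Among 13100 genes compared with the mean log2 CPM of Cd74, H2-Aa, H2-Ab1 and H2-Eb1, the most alike outside the 7 were Gm15293 and Lyz1 (r = 0.971 each), Defa35 (r = 0.969), Habp2 (r = 0.964) and Defa5 (r = 0.963). Lyz1 and the defensins are products of Paneth cells of the small intestine, and the defensins belong to a multigene family whose reads may be shared. Their r with the same mean was 0.69 to 0.79 within the small intestine libraries and −0.14 to 0.65 within the colon libraries.

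The single-cell matrices showed which colon cells carried the class II transcripts. The matrices held 4732 barcodes in Ime, 12928 in Met and 8001 in CT, with median depths of 1354.5, 5496.5 and 2341 unique molecular identifiers (UMIs), and 625 to 1686 barcode sequences recurred between pairs. With 1 matrix per treatment there is no test, and intervals cover counting error only. Cells were clustered without the class II genes. Levels are the CPM of the cluster's summed UMIs, from a probe assay, and are not on the scale of the bulk libraries.

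Cluster 17, 813 cells led by Mpeg1, Apol7c, Clec9a and Itgax, the last 2 known from dendritic cells, had the most Cd74 at 20931 CPM over the 3 matrices. It was left unnamed because its leading genes mixed markers. Cluster 0, 1749 B-cell-like cells led by Ighd and Pax5, had 14913 CPM, and cluster 16, 670 macrophage-like cells led by Cd163 and Stab1, had 5574 CPM. Clusters 1 and 10, of 45 and 142 cells, were also B-cell-like, at median depths of 4827 and 7147.5 UMIs against 1108 in cluster 0. All B-cell-like cells together had less Cd74 than cluster 0, as given in the last section. The plasma-cell-like cluster 31 kept Cd74 at 4267 CPM but had 12.1 CPM of Ciita, against 1472 in cluster 0. H2-Eb1 likewise stood at 444 CPM in cluster 31 and 4261 CPM in cluster 0.

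In the named epithelial clusters the levels were near the bottom of the range. Cd74 lay between 74.8 and 815 CPM in the 9 epithelial clusters, the highest of them, cluster 36, being 62 enteroendocrine-like cells found in Met alone. H2-DMb1 lay between 0 and 2.16 CPM there. Droplet assays pick up free RNA from other cells: in goblet-cell-like cells a Cd74 UMI was found in 19.8% of cells in Ime, 68.3% in Met and 34.1% in CT, at median depths of 2557.5, 13702 and 5356 UMIs. When each cell was thinned to 500 UMIs these shares fell to 3.38% in Ime, 9.65% in Met and 4.80% in CT. At this depth a low level in these cells and free RNA cannot be told apart.

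**Figure D4:**
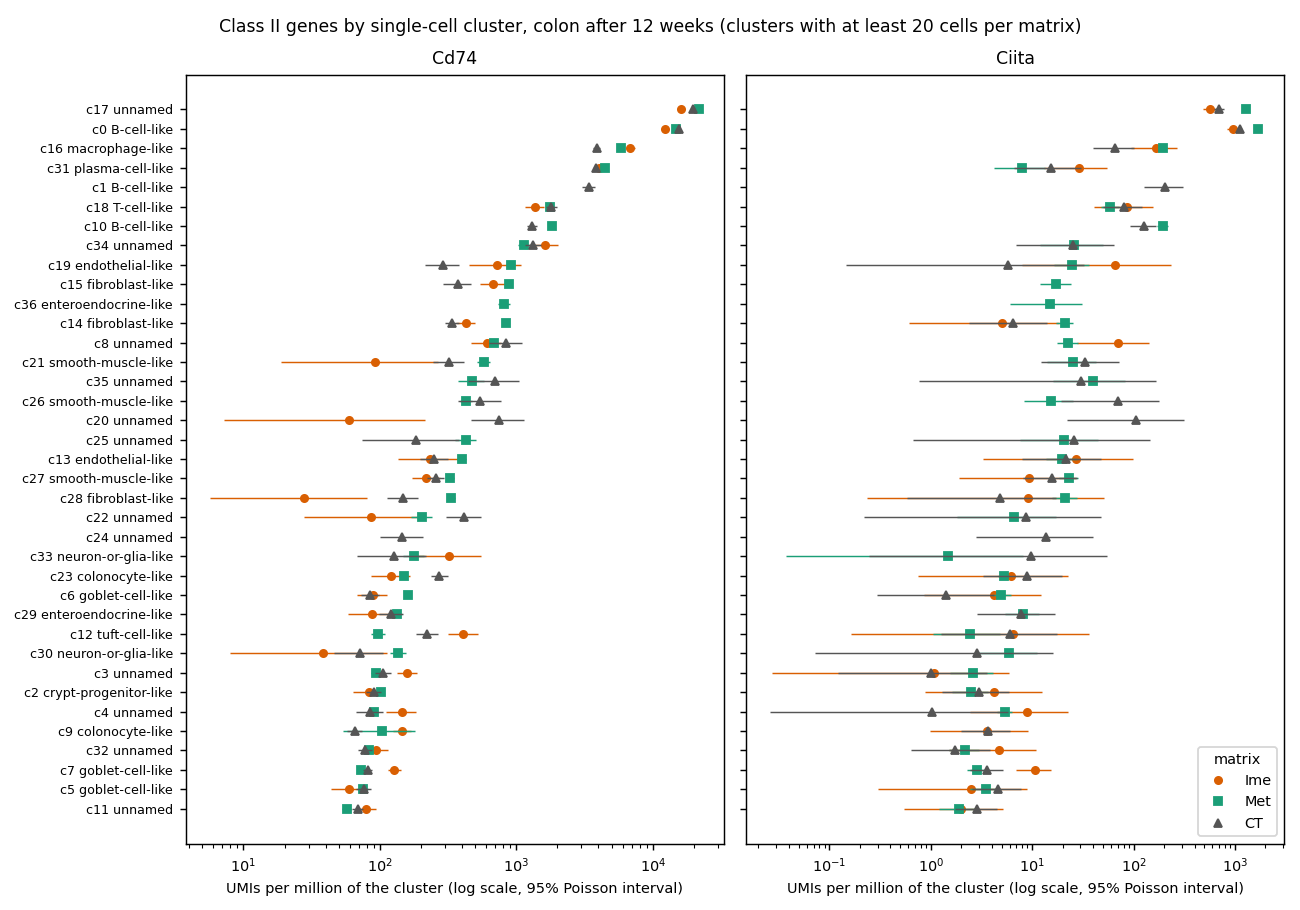
CPM of Cd74 and Ciita UMIs (x axis, log scale, 95% Poisson interval) by single-cell cluster, 1 point for each of the matrices Ime, Met and CT with at least 20 cells in the cluster. Clusters 17 and 0 stand highest for both genes, and the plasma-cell-like cluster 31 is high for Cd74, near 4267 CPM, and low for Ciita, near 12.1 CPM.

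Between matrices, Cd74 in cluster 17 was at 16135 CPM in Ime (95% Poisson interval 15634 to 16649), 21827 in Met (21614 to 22040) and 19807 in CT (19392 to 20228). Ciita in the same cells was at 573 CPM in Ime, 1272 in Met and 700.2 in CT. In cluster 0 Cd74 was at 12250 CPM in Ime, 14902 in Met and 15613 in CT, and Ciita at 959, 1701 and 1112 CPM in the same order. In cluster 16 Cd74 was at 6830 CPM in Ime, 5806 in Met and 3887 in CT. The order of the matrices differed between cell clusters, and in clusters 17 and 0 Ciita was highest in Met, the deepest matrix.

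B-cell-like cells, here clusters 0, 1 and 10 together, held 25.4% of all Cd74 UMIs in Ime, 23.6% in Met and 45.03% in CT. Cluster 17 held 37.5% in Ime, 32.6% in Met and 28.7% in CT. For Ciita the B-cell-like share was 46.1% in Ime, 45.1% in Met and 65.2% in CT. B-cell-like cells made up 5.14% of the cells in Ime, 6.92% in Met and 9.99% in CT. These shares depend on dissociation and on which cells passed the depth limit, whose part was not tested.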

How the data were processed

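Polyadenylated RNA of 45 gut samples was sequenced in bulk (TruSeq Stranded mRNA), and fixed colon cells were profiled by Chromium Fixed RNA Profiling in 3 matrices. The authors deposited 5 tables of raw read counts per gene symbol, 9 libraries each, and 3 matrices of raw UMI counts. Tools listed in the submitters' processing notes are HISAT2, StringTie, Trimmomatic, FastQC and Cell Ranger, with the builds mm10 and GRCm39. The build and strand setting behind the counts are not given in the sources used here. Without a stated strand setting, reads of overlapping genes cannot be told apart. Per the labels, replicate numbers are batch tags, so the numbers pair libraries; same-numbered libraries' deviations had a mean correlation of −0.00563 in the acute colon, 0.00548 in the proximal, −0.100 in the middle and −0.132 in the distal small intestine and 0.0687 in the chronic colon.

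Each table was fitted whole with edgeR 4.0.16 (R 4.3.3; TMM scaling, filterByExpr, quasi-likelihood F test), with Benjamini-Hochberg adjustment over all genes tested and calls at 0.05. Untreated segments were compared in 1 fit of the 36 chronic libraries. Differences between drug effects were tested as interactions in that fit and in 1 fit of 18 colon libraries. Printed CPM come from 1 scaling of the 45751 symbols shared by the tables, since 26 symbols of the chronic colon table were altered into dates. DESeq2 1.42.0, other scaling, no filter, fits of 2 groups, a replicate block, a B cell score covariate and leaving out each library were the alternatives. The fit was checked on simulated counts. No pair of replicates agreed within sampling noise, at a chi-square per gene of 12.9 or more. The 7 genes and all gene lists were chosen with earlier results of these data known; the text names all 7 genes and, of other lists, the 2 called genes of lowest p, plus genes that complete a count of 5 or fewer, which were named after their values were seen (Gbp2, Ctsb, B2m). A gene that this rule names is not reported here.

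Cells with at least 200 genes were clustered with scanpy 1.11.5 (2000 variable genes without class II genes, 40 components, resolution 1.0). Scrublet marked 0 cells, so it did not work here and doublets remain. Intervals are exact at 95% and cover counting error only.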

Additional observations from a re-analysis of the deposited data

How the results depend on the processing

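The 7 class II genes were lower in untreated colon than in distal small intestine under every alternative run, with 7 calls each. Elsewhere the counts of the 7 called by edgeR moved with the setting, and the cause was not tested. For proximal metformin against control, 4 were called; the replicate block and the B cell covariate each gave 0, RLE scaling and a fit of the 2 groups each gave 3, no filter gave 5, DESeq2 gave 6, and leaving out 1 library gave 0 to 6. With the B cell covariate, Cd74 (0.92), H2-DMb1 (0.64), Ciita (0.38), H2-Aa (0.7873), H2-Ab1 (0.7479), H2-Eb1 (0.2116) and H2-DMa (0.2612) turned to positive log2 fold changes with no call; summed B cell markers did not overlap between these groups (36.1 to 38.1 CPM with metformin, 46.4 to 48.4 CPM in controls), and 0 of all genes were called with the covariate, against 710 without it. For proximal imeglimin against metformin, 1 was called; the block and the covariate each gave 0, no filter gave 3, DESeq2 gave 5, a fit of the 2 groups gave 6, and leaving out 1 library gave 0 to 1. For metformin in the chronic colon, 0 were called; the block gave 4, DESeq2 gave 1, a fit of the 2 groups gave 3, and leaving out 1 library gave 0 to 6. DESeq2 called 1 for imeglimin against control in the middle and 1 in the distal segment, 5 for imeglimin against metformin in the middle segment, 3 in the distal segment and 1 in the chronic colon, and 1 for the metformin effect between segments, where edgeR called 0. Leaving out 1 library gave 0 to 1 for middle against proximal controls (1 without proximal control 3), and leaving out 1 replicate number gave 0 to 1 for the metformin effect in chronic against acute colon. The block changed no other call of the 7. Over all genes the block called 470 for proximal metformin against control, 94 for proximal imeglimin against metformin and 3546 for metformin in the chronic colon. Leaving out 1 library called 52 to 493, 0 to 140 and 2066 to 3429 in that order, against 710, 189 and 3669 in the main fits. With the B cell covariate 0 of all genes were called for proximal imeglimin against metformin.

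Over all genes DESeq2 called 1521 for proximal metformin where edgeR called 710, 819 where edgeR called 200 for proximal imeglimin, and 940 where edgeR called 5 for middle imeglimin. For imeglimin against metformin it called 819 in the proximal, 312 in the middle and 222 in the distal segment, where edgeR called 189, 0 and 9.

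In single cells, Cd74 over the 3 matrices was at 9082 CPM in B-cell-like, 5574 CPM in macrophage-like and 4267 CPM in plasma-cell-like cells. With at least 500 genes per cell it was 8729, 5158 and 4386 CPM in that order, at resolution 0.5 it was 9908, 5101 and 4725 CPM, and without the 10% of cells with the highest doublet scores, chosen after seeing the data, 16120, 7683 and 5045 CPM. Keeping all cells equals the values given, since the caller marked none. With 3 libraries per group, effects near the threshold are decided by single libraries.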
